A study of Mus musculus with 9 samples.

Results

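The genes described here are 6 genes of vitamin D signalling and of calcium and phosphate absorption, namely Vdr, Trpv6, S100g, Atp2b1, Cyp24a1 and Slc34a2. They were taken by name from an expression table of 54532 genes measured in mouse duodenal tissue, 9 libraries in 3 groups of 3. The control group was wild type, and its gluten stimulation was not enhanced. The CeD group was a model of celiac disease, in which dietary gluten drives an enteropathy, built on delayed-type hypersensitivity (DTH) and put under enhanced stimulation with gluten. The CeD+GR group was the same model under the same enhanced stimulation, and had beforehand been given composite nanoparticles of gliadin, a fraction of gluten, and rapamycin, an inhibitor of the mTOR kinase. Strain, age, allele and the way the model is induced are not given in the labels used here. Nor is it stated that each library is a separate animal, and p-values therefore reflect sample-to-sample spread that may be technical.

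The duodenum takes up calcium across its enterocytes under the control of vitamin D. The active hormone binds the receptor Vdr, which pairs with a retinoid X receptor on DNA. Calcium then enters through the apical channel Trpv6, is carried through the cell by the small buffer S100g (calbindin) and leaves through the basolateral pump Atp2b1. Cyp24a1 breaks the hormone down and is itself a strong target of the receptor, which closes a feedback loop. Slc34a2 is the sodium-dependent phosphate cotransporter of the brush border. In the mouse, calcium absorption genes are known for high levels in the proximal small intestine and Slc34a2 for high levels in its distal part.

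In the enterocyte list of 20 markers no gene was at 0 in any library, and the mean log2(FPKM + 0.5) of the list was 8.95 to 10.22 in 8 libraries and 7.59 in CeD+GR 3. CeD+GR 3 also stood apart by 10 stomach and Brunner gland markers, whose summed level was 140705 FPKM (fragments per kilobase, scaled for depth) against at most 52.5 FPKM elsewhere. In that library 9 of the 10 were at their highest level, from 116219 FPKM for Tff2, 18377 FPKM for Gkn3, 3268 FPKM for Muc6, 1225 FPKM for Gkn2 and 1007 FPKM for Pgc down to 0.211 FPKM for Atp4a, and Gif was at 0. CeD 1 held 12 pancreas markers at a summed 4326 FPKM against 14.5 to 80.2 FPKM elsewhere, and CeD+GR 2 held 6 adipocyte markers at 460 FPKM against 45.1 to 107 FPKM. The 10 crypt and Paneth cell markers summed to 1123 to 2099 FPKM in the replicate 1 libraries and to 93.3 to 189 FPKM in the others. Recovered reads on genes ranged from 15373260 to 16852104 over the libraries. In whole tissue, fewer cells of a type and less RNA per cell cannot be told apart.

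S100g and Trpv6 both reached their highest level in the same library, CeD+GR 3, and Slc34a2 its lowest level there. Atp2b1 was also highest and Vdr also lowest in that library, but their windows are not shown. The 250 bases before the start of S100g, Trpv6 and Slc34a2 are shown. They come from RefSeq on build GRCm38.p6 (mm10), gene strand, and 5 of the 6 members had an entry there. Capitals mark AGGTCA, a hexamer that nuclear receptors including the vitamin D receptor recognise, on either strand (TGACCT on the opposite strand). S100g lies at chrX:162964600-162964849 (minus strand), Trpv6 at chr6:41636406-41636655 (minus strand) and Slc34a2 at chr5:53049103-53049352 (plus strand).
S100g: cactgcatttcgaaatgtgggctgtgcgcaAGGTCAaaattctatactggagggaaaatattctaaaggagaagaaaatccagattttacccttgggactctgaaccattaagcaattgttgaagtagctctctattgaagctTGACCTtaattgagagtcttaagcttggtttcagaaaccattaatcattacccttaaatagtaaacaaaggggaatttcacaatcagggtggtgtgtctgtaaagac
Trpv6: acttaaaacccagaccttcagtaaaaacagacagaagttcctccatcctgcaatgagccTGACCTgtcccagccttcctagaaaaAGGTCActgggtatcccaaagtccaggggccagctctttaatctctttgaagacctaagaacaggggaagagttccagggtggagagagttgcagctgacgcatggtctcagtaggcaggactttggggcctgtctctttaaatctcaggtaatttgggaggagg
Slc34a2: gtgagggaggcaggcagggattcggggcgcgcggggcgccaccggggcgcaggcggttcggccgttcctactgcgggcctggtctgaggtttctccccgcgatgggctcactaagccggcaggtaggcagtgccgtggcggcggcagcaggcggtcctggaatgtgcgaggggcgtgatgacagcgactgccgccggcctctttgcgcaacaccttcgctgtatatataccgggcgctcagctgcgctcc
The S100g window held 2 matches, beginning 220 and 107 bases before the start, and the Trpv6 window held 2, at 191 and 165 bases. The windows of Slc34a2, Vdr and Atp2b1 held none. The Slc34a2 window lies inside the gene as the expression table spans it, because RefSeq places the start of its transcript further in. The windows of Vdr and Atp2b1 also lie wholly or partly inside their genes. Of 32851 RefSeq windows of this length, 14.0% held at least 1 match and 1.36% held 2 or more. The related hexamers GGTTCA and AGTTCA were found once each, in S100g at 149 bases and in Vdr at 91 bases, against 8.85% and 11.8% of all windows. The repeat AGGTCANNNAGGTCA, sought on both strands and overlapping the first motif, was in none of the members' windows and in 0.00609% of all windows. Slc34a2 differed from the other 2 in base composition, with 69.6% G and C against 38.4% in S100g and 49.6% in Trpv6 and a median of 52.4% over all windows. A match describes letters only.

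Vdr, the receptor, was the steadiest member over the libraries. The gene lies on mm10 chromosome 15, 97854425 to 97910630 (ENSMUSG00000022479, minus strand). Control 1 to 3 held 86.0, 84.2 and 81.3 FPKM, CeD 1 to 3 held 89.1, 76.8 and 53.0 FPKM and CeD+GR 1 to 3 held 62.3, 55.1 and 43.4 FPKM. Every CeD+GR library lay below every control library, while CeD overlapped both groups, with CeD 1 the highest and CeD 3 the next lowest after CeD+GR 3. The groups averaged 83.8 ± 2.41, 73.0 ± 18.3 and 53.6 ± 9.56 FPKM (SD, n = 3). In CeD+GR against control the log2 fold change was -0.66 (SE 0.25), with an adjusted p of 1.0 in limma (unadjusted p = 0.0302; two-sided exact permutation p = 0.10, the smallest that 3 libraries against 3 allow). Among all 14683 tested genes, 3.04% were lower without overlap in this comparison, and Vdr was the 1 member of 6 that was. Without CeD+GR 3 the difference was -0.51. Centred on the enterocyte list of each library, which shifts all genes alike and moved their median to 0.49, it was -0.16. CeD against control gave -0.23 (SE 0.25) and CeD+GR against CeD -0.42 (SE 0.25), both with overlapping groups.

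Rxra, the retinoid X receptor that partners Vdr, averaged 45.9 ± 4.08 FPKM (SD, n = 3) in control, 42.0 ± 4.07 FPKM in CeD and 36.3 ± 10.3 FPKM in CeD+GR. All groups overlapped, and CeD+GR 3 was the lowest library at 25.4 FPKM. The second partner, Rxrb, was lower in level, at 7.46 to 9.77 FPKM in control and CeD and 8.92 to 11.0 FPKM in CeD+GR, where all 3 libraries lay above CeD, as did 3.01% of all tested genes (limma adjusted p = 1.0).

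Trpv6, the entry channel, was measurable at a substantial level in 1 library only. The gene lies on chromosome 6, 41620624 to 41636405 (ENSMUSG00000029868, minus strand). CeD+GR 3 stood at 21.3 FPKM, from 1372 reads. Control 1 to 3 held 0.279, 0.0694 and 0.0602 FPKM, CeD 1 to 3 held 0.0855, 0.0176 and 0.0308 FPKM, and CeD+GR 1 and 2 were at 0, all from 0 to 20 reads each. A count of 0 allows up to 3 reads, counting error only. The ratio of the highest library to the next was 76.4. Trpv6 therefore passed the filter on low values (a mean of at least 0.5 FPKM) through CeD+GR 3 alone, since its mean over the other 8 libraries was 0.0678 FPKM. The log2 fold change of CeD+GR against CeD was 1.69 (SE 1.26, limma adjusted p = 1.0), and without CeD+GR 3 it was -0.12. Against control it was 1.49 (SE 1.26), and -0.33 without that library. Most of the 10 stomach and Brunner gland markers were also highest in CeD+GR 3, as given above, while Gif was at 0 there. The part of these markers in the level of Trpv6 was not tested. Trpv5, the closely related renal channel, was at 0 in 8 libraries and at 0.0754 FPKM in CeD+GR 3.

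S100g, the calcium buffer, had an 852-fold range over the libraries and left the control range in both directions within CeD+GR. The gene lies on the X chromosome, 162961992 to 162964599 (ENSMUSG00000040808, minus strand). Control 1 to 3 held 189, 130 and 192 FPKM, CeD 1 to 3 held 245, 57.4 and 19.6 FPKM and CeD+GR 1 to 3 held 20.0, 3.84 and 3270 FPKM. The control libraries lay close together beside this range. CeD 2 and 3 and CeD+GR 1 and 2 lay below all of them, while CeD 1 and CeD+GR 3 lay above all of them. CeD+GR 3 was 19.2 times the control mean, and the mean of CeD+GR 1 and 2 was 0.0701 times the control mean. The fitted log2 fold changes were -1.35 (SE 2.09) for CeD against control, 0.01 (SE 2.09) for CeD+GR against CeD and -1.34 (SE 2.09) for CeD+GR against control, with a limma adjusted p of 1.0 each. The group mean of CeD+GR, 1098 ± 1881 FPKM (SD, n = 3), thus describes none of its libraries. Without CeD+GR 3 the last 2 values became -2.80 and -4.16, and without CeD+GR 2 the last one turned to 0.62. With both CeD 1, the library with pancreas transcripts, and CeD+GR 3 left out, CeD against control was -2.30. Reads behind S100g ranged from 29 in CeD+GR 2 to 25662 in CeD+GR 3. The part of the stomach and gland markers of CeD+GR 3 (140705 FPKM in sum) and of the adipocyte markers of CeD+GR 2 (460 FPKM) in the levels of S100g and of Atp2b1 was not tested. Ctps2 overlaps S100g on the opposite strand and reached 4.06 FPKM at most, and the strand setting of the counting is not given in the sources used here.

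Pdx1 and Slc40a1, picked from the list of 10 position markers after their values were seen, had levels that moved with S100g. Pdx1, a homeobox factor of pancreas and upper duodenum, held 26.0 to 27.2 FPKM over the controls, then 25.3, 12 and 6.64 FPKM in CeD 1 to 3, and 1.59, 0.118 and 46.0 FPKM in CeD+GR 1 to 3. The iron exporter Slc40a1 of duodenal enterocytes stood at 40.9, 18.9 and 21.7, at 40.2, 5.51 and 1.73 and at 1.37, 0.451 and 69.2 FPKM in the same order. As for S100g, CeD+GR 2 was the lowest and CeD+GR 3 the highest library for both genes. Other genes of the list shared this only in part or not at all. Gata4 varied less, at 27.5 FPKM in CeD+GR 2 to 59.9 FPKM in control 1. Onecut2 was lowest in CeD+GR 1 (5.61 FPKM) and highest in CeD 1 (14.1 FPKM). Cybrd1 was highest in CeD+GR 3 (21.9 FPKM) but lowest in control 2 (0.166 FPKM). The ileal genes Fabp6 and Slc10a2 were at most 0.143 and 0.384 FPKM in every library. The place along the duodenum from which each sample was taken is not given in the labels, and its part in these levels was not tested.

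Atp2b1, the export pump, followed S100g with a smaller range. The gene lies on chromosome 10, 98914406 to 99026143 (ENSMUSG00000019943, plus strand). Control 1 to 3 held 26.0, 17.5 and 18.6 FPKM, CeD 1 to 3 held 27.0, 19.5 and 9.92 FPKM and CeD+GR 1 to 3 held 9.56, 7.78 and 38.9 FPKM. CeD+GR 3 was again the highest library, CeD+GR 2 the lowest, and the ratio between them was 5.00. All groups overlapped, and the log2 fold changes were -0.22, -0.27 and -0.49 (SE 0.59 each) for CeD against control, for CeD+GR against CeD and for CeD+GR against control, with a limma adjusted p of 1.0 each. Without CeD+GR 3 the last 2 were -0.97 and -1.19. Without CeD 3 the first turned to 0.17.

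Of the related pumps, Atp2b4 stood at 4.25 to 12.8 FPKM in control and CeD against 1.2, 5.00 and 2.44 FPKM in CeD+GR 1 to 3. Its log2 fold change in CeD+GR against CeD was -1.37 (SE 0.47, limma adjusted p = 1.0), with overlapping groups. The sodium-calcium exchanger Slc8a1 stood at 2.16 to 5.46 FPKM in CeD against 1.01, 0.0216 and 0.709 FPKM in CeD+GR. Both genes are also expressed in muscle: the summed level of 8 smooth muscle markers was 392 to 1486 FPKM in CeD and 193, 570 and 696 FPKM in CeD+GR 1 to 3, and its part in these values was not tested.

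Cyp24a1, the enzyme that inactivates the hormone, was likewise carried by 1 library, but a different one. The gene lies on chromosome 2, 170482708 to 170497145 (ENSMUSG00000038567, minus strand). Control 3 stood at 52.2 FPKM, from 3133 reads. Control 1 and 2 stood at 0.0154 and 0.307 FPKM, CeD 1 to 3 at 0.126, 0 and 0.239 FPKM and CeD+GR 1 to 3 at 0, 0.499 and 0.0859 FPKM, from 0 to 28 reads each. Control 3 was thus 104 times the next library, and the other 8 overlapped between the groups. The mean without control 3 was 0.159 FPKM, so this member too passed the filter through 1 library. The fitted differences of CeD and CeD+GR from control were -2.19 and -2.08 (SE 1.48 each, limma adjusted p = 1.0), and without control 3 they were -0.07 and 0.04. In the same library Vdr was at 81.3 FPKM, against 86.0 and 84.2 FPKM in control 1 and 2. S100g was at 192 FPKM, against 189 and 130 FPKM. Trpv6 was at 0.0602 FPKM, against 0.0694 FPKM in control 2, from 4 reads each. No order among the controls is read from these values. Pfdn4 overlaps one end of Cyp24a1 on the opposite strand and reached 4.61 FPKM at most. Cyp27b1, which makes the active hormone, stood at 0.380 FPKM or less in all libraries.

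Slc34a2, the phosphate cotransporter, was highest in 2 of the libraries where S100g was low. The gene lies on chromosome 5, 53038081 to 53071664 (ENSMUSG00000029188, plus strand). Control 1 to 3 held 0.405, 0.777 and 0.662 FPKM, CeD 1 to 3 held 0.123, 2.64 and 0.484 FPKM and CeD+GR 1 to 3 held 17.0, 6.46 and 0.0854 FPKM. CeD+GR 1 and 2 exceeded the other 7 libraries, and CeD+GR 3 was the lowest of all. CeD 3, where S100g was about as low as in CeD+GR 1, did not leave the control range of Slc34a2. The mean of CeD+GR 1 and 2 was 19.1 times the control mean. The log2 fold changes of CeD+GR were 1.74 against CeD and 1.91 against control (SE 1.12 each, limma adjusted p = 1.0). Without CeD+GR 3 they were 3.15 and 3.32. With replicates 2 and 3 only, they were 0.20 and 0.73. CeD against control gave 0.17 (SE 1.12), which turned to -0.49 without CeD 2.

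**Figure D1:**
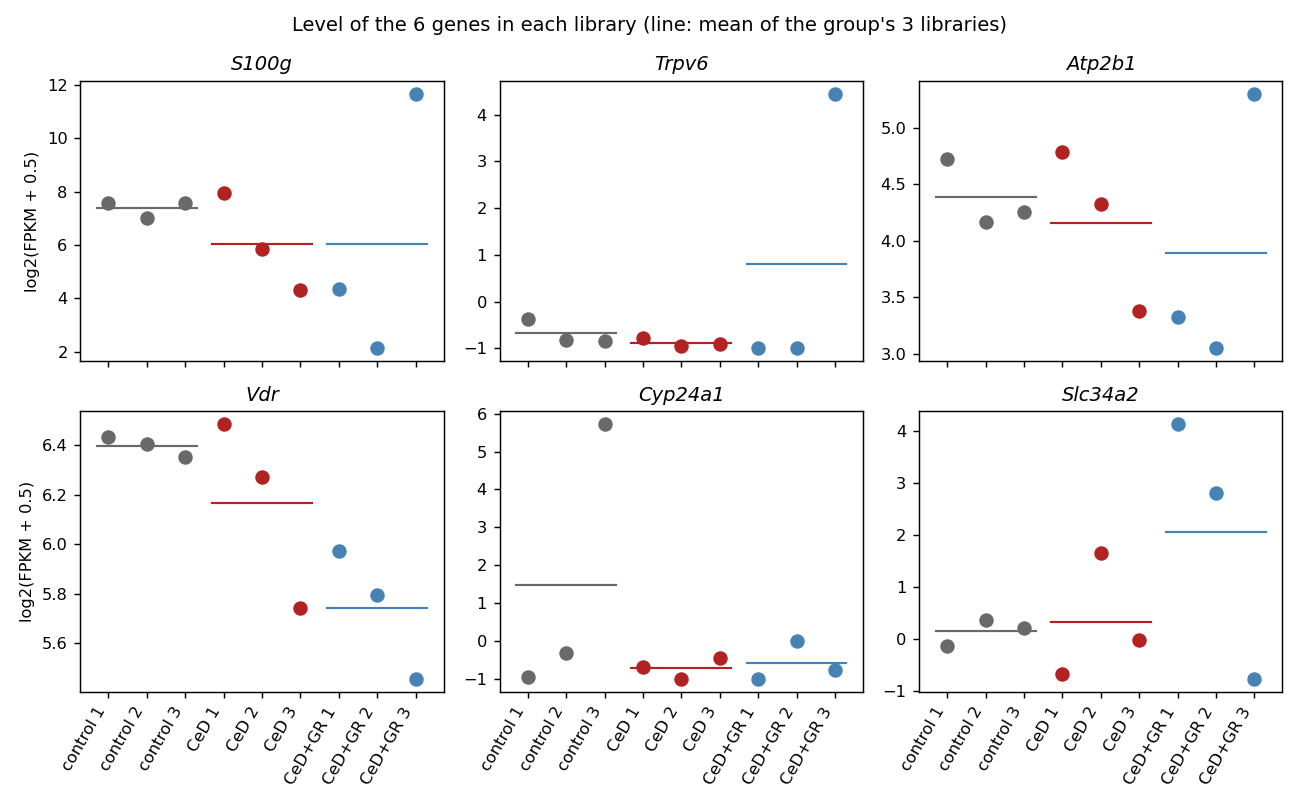
Level of each of the 6 genes on the log2(FPKM + 0.5) scale (vertical axis) in each of the 9 libraries (horizontal axis, coloured by group), with a line at the mean of each group's 3 libraries. CeD+GR 3 is the highest library for S100g (3270 FPKM), Trpv6 (21.3 FPKM) and Atp2b1 (38.9 FPKM) and the lowest for Vdr (43.4 FPKM) and Slc34a2 (0.0854 FPKM), and control 3 is the highest for Cyp24a1 (52.2 FPKM).

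In the order of their levels per length, S100g and Vdr led in control, at 170 ± 34.8 and 83.8 ± 2.41 FPKM (SD, n = 3), followed by Atp2b1 at 20.7 ± 4.60 FPKM. Cyp24a1, Slc34a2 and Trpv6 averaged 17.5 ± 30.0, 0.615 ± 0.190 and 0.136 ± 0.124 FPKM there. Outside control 3 the neighbours Cyp24a1, Slc34a2 and Trpv6 were all under 1 FPKM in control. In CeD the order was S100g at 107 ± 121, Vdr at 73.0 ± 18.3, Atp2b1 at 18.8 ± 8.57, Slc34a2 at 1.08 ± 1.36, Cyp24a1 at 0.122 ± 0.119 and Trpv6 at 0.0447 ± 0.0360 FPKM. S100g led there through CeD 1 alone, at 245 FPKM against 89.1 FPKM for Vdr. Vdr was ahead in CeD 2 (76.8 against 57.4 FPKM) and in CeD 3 (53.0 against 19.6 FPKM). The difference between these genes was not tested. Vdr was the highest member, ahead of S100g, in CeD+GR 1 and 2 as well.

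All 6 members passed the filter, 2 of them through 1 library, and limma called none of them in any comparison. The background was the same, with 0% of 14683 genes called each time. An unadjusted p under 0.05 was reached by 0 members in CeD against control (0.701% of all genes, 103), by 0 in CeD+GR against CeD (2.89%, 425) and by 1, Vdr, in CeD+GR against control (2.72%, 400). Groups that did not overlap were found for 0, 0 and 1 members in the same order, against 4.69%, 6.05% and 5.58% of all genes. Of all genes 2.20%, 3.01% and 2.54% were higher without overlap, as was no member. With limma-voom on the recovered reads 0 genes were called too, and that unadjusted p was reached by 27 higher and 37 lower, 105 higher and 277 lower, and 136 higher and 199 lower genes. In CeD against control 5 of 6 members were lower and 1 higher, with a median log2 fold change of -0.23 against 0.00 over all tested genes. Between CeD+GR and CeD 4 were higher and 2 lower, with a median of 0.06 against 0.01. Between CeD+GR and control 2 were higher and 4 lower, with a median of -0.57 against 0.00. These comparisons share groups in pairs.

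**Figure D2:**
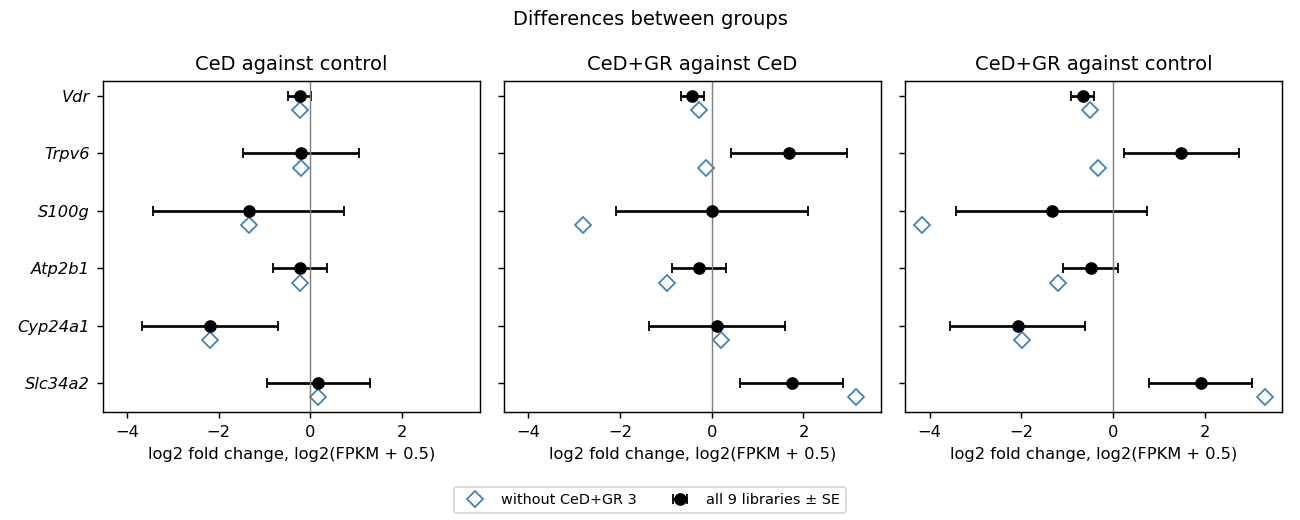
Log2 fold change on the log2(FPKM + 0.5) scale (horizontal axis) of the 6 genes (vertical axis) in the 3 comparisons, as filled points with SE over all 9 libraries and as open diamonds without CeD+GR 3. Leaving out that library moves S100g in CeD+GR against control from -1.34 to -4.16, Slc34a2 from 1.91 to 3.32 and Trpv6 from 1.49 to -0.33, while Vdr moves from -0.66 to -0.51.

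Over the 9 libraries, S100g and Atp2b1 moved together. On the log2 scale Pearson's r was 0.95 (two-sided exact permutation p = 0.000110, adjusted over 15 pairs of members 0.00165) and Spearman's rho 0.90 (exact p = 0.00203, adjusted 0.0152). Without the 2 libraries farthest from the median of S100g, CeD+GR 2 and CeD+GR 3, r was 0.92. Within replicates 2 and 3 it was 0.97 (n = 6, exact permutation p = 0.00694) and the 3 replicate 1 libraries are too few for a value. These points share the tissue, the scaling and the groups, and the correlation says nothing about a group difference.

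Vdr followed both genes in 8 libraries and departed from them in 1. Its r with S100g was 0.04 over 9 libraries (exact permutation p = 0.929, adjusted 0.934; rho 0.33, exact p = 0.385, adjusted 0.704) and 0.93 without CeD+GR 3, a library singled out after its values were seen. Without the 2 libraries farthest from the median of Vdr, CeD+GR 3 and CeD 3, it was 0.98. Within replicates 2 and 3, where CeD+GR 3 is 1 of 6, it was -0.15 (exact permutation p = 0.810). With Atp2b1 the r of Vdr was 0.21 over 9 libraries (exact permutation p = 0.577, adjusted 0.934; rho 0.28, exact p = 0.463, adjusted 0.704) and 0.94 without CeD+GR 3. The relation of Vdr to both genes thus rests on leaving that library out.

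Slc34a2 ran opposite to S100g, with an r of -0.73 (exact permutation p = 0.0260, adjusted 0.0779) and a rho of -0.77 (exact p = 0.0214, adjusted 0.0535), neither of which passed the adjustment. Without CeD+GR 2 and 3 r was -0.65, and within replicates 2 and 3 it was -0.79 (n = 6, exact permutation p = 0.0583). Against Atp2b1 it gave an r of -0.74 (exact permutation p = 0.0219, adjusted 0.0779) and a rho of -0.83 (exact p = 0.00827, adjusted 0.0248). That r was -0.61 without the same 2 libraries and -0.65 within replicates 2 and 3 (exact permutation p = 0.164). Pairs with Trpv6 are not read here, since outside CeD+GR 3 its level rests on 20 reads or fewer. The 5 pairs with Cyp24a1 had r between -0.15 and 0.22, and none passed.

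**Figure D3:**
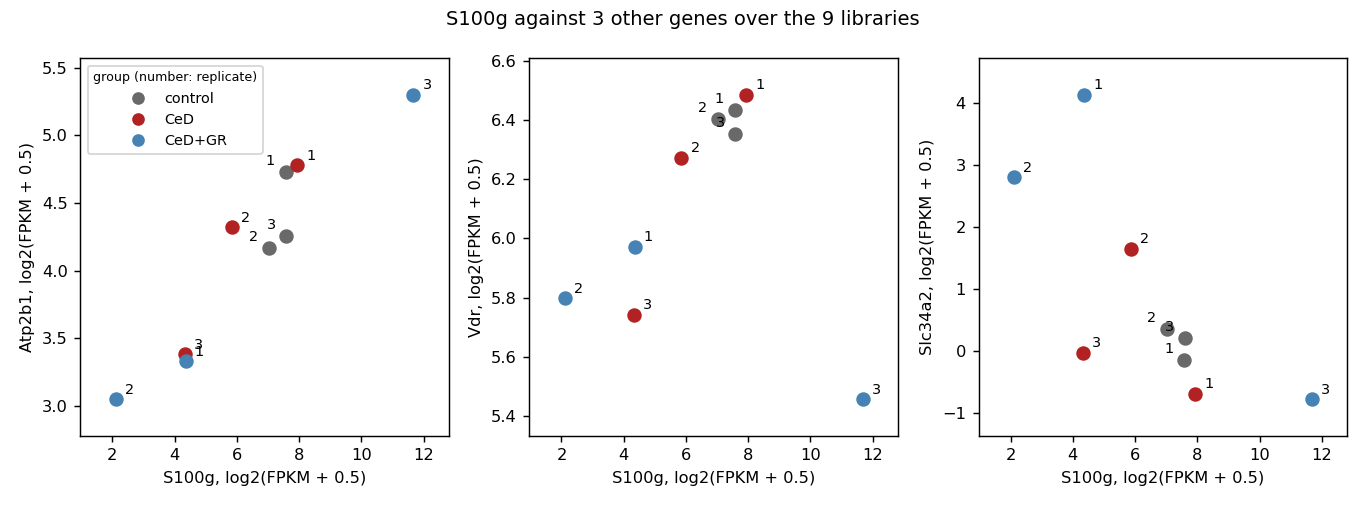
S100g (horizontal axis) against Atp2b1, Vdr and Slc34a2 (vertical axes), all as log2(FPKM + 0.5), with 1 point per library coloured by group and numbered by replicate. Atp2b1 rises with S100g over all 9 libraries (r = 0.95), Vdr does so in 8 libraries (r = 0.93) but not in CeD+GR 3, and Slc34a2 runs the other way (r = -0.73).

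Among the other genes of vitamin D signalling, 17 partners, enzymes and uptake genes were listed and 13 were tested. None was called in any comparison, against 0% of all genes. For CeD+GR and control 9 of the 13 fold changes were negative, and the median was -0.32 on the log2 scale. Of all 14683 tested genes 7386 were negative there. So were 19 of the 20 enterocyte markers (median -0.45), whose part in the direction was not tested. Of the 13, Ncoa3 (-0.36) and Med1 (-0.32) lay lower in CeD+GR than in control without overlap, as did 3.04% of all tested genes. Cyp27a1, a sterol hydroxylase that can also hydroxylate vitamin D, stood at 30.5 to 62.6 FPKM in control, 19.1 to 62.6 FPKM in CeD and 82.0, 90.5 and 5.66 FPKM in CeD+GR 1 to 3. Cubn, which encodes the uptake receptor cubilin, stood at 1.39 to 4.85 FPKM in control and at 4.74, 35.9 and 5.69 FPKM in CeD 1 to 3, against 24.2, 18.5 and 0.0737 FPKM in CeD+GR 1 to 3. Cyp27a1 was highest in CeD+GR 1 and 2, as Slc34a2 was, while Cubn was highest in CeD 2, and CeD+GR 3 was the lowest library for all 3 genes.

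Of 16 other genes listed as possible targets of the receptor, not all of them intestinal, 14 were tested and none was called. In CeD against control 8 were higher and 6 lower, with a median of 0.02. Between CeD+GR and CeD 5 were higher and 9 lower (median -0.35), and in CeD+GR against control 4 were higher and 10 lower (median -0.47). All tested genes split into 7500 higher and 7179 lower against CeD, and 7297 higher and 7386 lower against control. Of 20 enterocyte markers, 20 were lower against CeD (median -0.54) and 19 against control (median -0.45). Their part in the direction was not tested. Slc30a10, a manganese exporter, stood at 32.5, 34.7 and 40.5 FPKM in control and at 28.6, 16.3 and 11.9 FPKM in CeD, against 12.8, 15.5 and 30.2 FPKM in CeD+GR. Both CeD and CeD+GR lay below control without overlap, as did 2.49% and 3.04% of all tested genes. The log2 fold changes were -0.99 and -0.96 (SE 0.39 each, limma adjusted p = 1.0, two-sided exact permutation p = 0.10 each).

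Slc37a2, a sugar phosphate exchanger of the same list, followed the pump over the libraries. Control 1 to 3 held 8.57, 6.66 and 4.74 FPKM, CeD 1 to 3 held 12.4, 6.59 and 1.35 FPKM and CeD+GR 1 to 3 held 1.07, 0.765 and 13.3 FPKM. Cldn2, a claudin that forms pores for cations including calcium, was at 266 FPKM in CeD+GR 3 and at 15.8 to 33.0 FPKM in the replicate 1 libraries, against 0.573 to 7.26 FPKM in the other 5. Its high libraries were thus those with stomach and gland markers or with crypt and Paneth cell markers, and the part of these in its level was not tested. Cldn12, the second claudin linked to calcium, was flat at 7.16 to 9.38 FPKM. Abcc2, an export pump for conjugates, stood at 38.2 to 93.0 FPKM in CeD and 14.0 to 34.6 FPKM in CeD+GR, lower without overlap as were 3.04% of all genes, with a log2 fold change of -1.37 (SE 0.42, limma adjusted p = 1.0).

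Of 34 symbols listed for calcium channels, pumps, exchangers and buffers, 33 matched a row of the table and 25 were tested. None was called. In CeD against control 16 were higher and 9 lower (median 0.05), and in CeD+GR against CeD 9 were higher and 16 lower (median -0.17). For CeD+GR and CeD the median was 0.01 over all tested genes and -0.54 over the enterocyte markers, whose part was not tested. The calcium list also held genes outside its heading. Of these Vil1, Pls1 and Myo1a were lower in that comparison (-0.52, -0.57 and -0.37), and Anxa2 and S100a10 were higher (0.13 and 0.38). Vil1 is in the enterocyte list too, so the lists are not separate. Stim1, the calcium sensor of the endoplasmic reticulum, stood at 4.89 to 6.31 FPKM in control, 4.89 to 6.30 FPKM in CeD and 2.75 to 3.83 FPKM in CeD+GR. Slc8a1 and Atp2a2, the pump of the endoplasmic reticulum, were the other 2 genes of this list that lay lower in CeD+GR than in CeD without overlap, as did 3.04% of all tested genes (limma adjusted p = 1.0 for all 3). Calb1, the larger calbindin of the kidney, was at 0.0524 FPKM or less.

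Of 16 symbols listed for phosphate and magnesium transport, 15 matched a row of the table and 11 were tested, and none was called. In CeD against control 9 were higher and 2 lower (median 0.18), and in CeD+GR against CeD 0 were higher and 11 lower (median -0.33). The 20 enterocyte markers were all negative in that comparison too, with a median of -0.54, and their part in the direction was not tested. Alpi is in both lists, so these counts are not separate. The widely expressed phosphate transporters Slc20a1 and Slc20a2 stood at 3.86 to 12.5 and 4.78 to 8.17 FPKM over the libraries, above Slc34a2 in all but CeD+GR 1. The renal cotransporters Slc34a1 and Slc34a3 were at 0.261 FPKM or less. Alpi, the intestinal alkaline phosphatase, stood at 1072 to 1512 FPKM in control and at 1506, 1464 and 632 FPKM in CeD 1 to 3, against 651, 405 and 1643 FPKM in CeD+GR 1 to 3. It shared its highest and lowest library with S100g and Atp2b1.

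**Figure D4:**
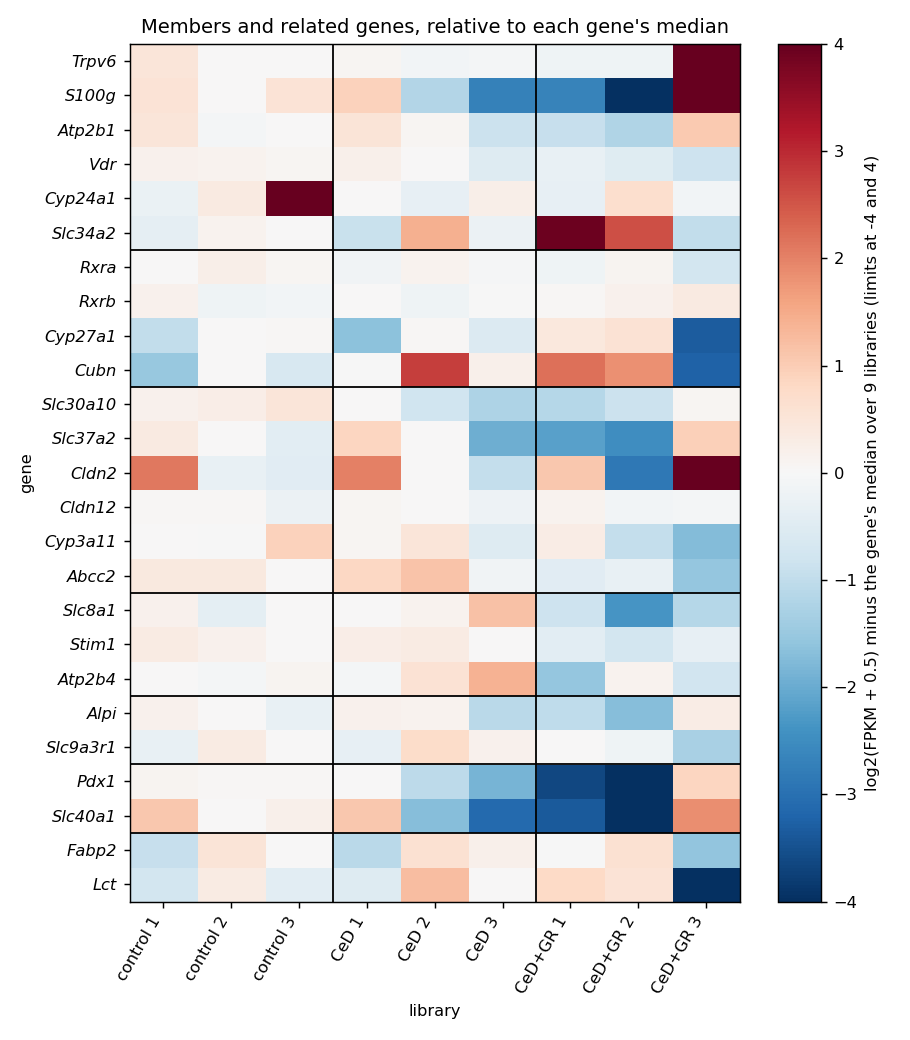
Level of the 6 members and 19 related genes (rows) in the 9 libraries (columns), as log2(FPKM + 0.5) minus the gene's median over the libraries, with colours limited at -4 and 4. Horizontal lines part the members, signalling genes, other targets, calcium genes, phosphate genes, position genes and enterocyte genes, and CeD+GR 3 shows high S100g, Trpv6 and Cldn2 beside low Cubn, Cyp27a1 and Lct.

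The genes most like each member were sought among 12100 other tested protein-coding genes by Pearson's r of log2(FPKM + 0.5) over the 9 libraries. For S100g they were Tnni1, a troponin subunit (r = 0.982), Acot7, an acyl-CoA thioesterase (0.962), and Tecpr2 (0.962), and r was 0.926 to 0.965 without CeD+GR 3. For Atp2b1 they were Slc37a2 (0.974), Appbp2 (0.970) and Mrs2, a mitochondrial magnesium channel (0.959). For Vdr they were Kctd20 (0.975), Patl1, an mRNA decay factor (0.958), and Ccdc88c (0.951). For Slc34a2 they were Srebf1, a transcription factor of lipid synthesis (0.965), Osr2, a zinc finger transcription factor (0.948), and Hgsnat, a lysosomal acetyltransferase (0.947). The best of so many genes are alike in part by selection, so the values are descriptions.

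Osr2 stood at 5.40 and 5.56 FPKM in CeD+GR 1 and 2, at 1.93 FPKM in CeD 2 and no higher than 0.569 FPKM elsewhere. Trpv6 was most like Zfp750 (r = 0.996), Ippk (0.996) and the gland mucin Muc6 (0.995), and these were 0.777, 0.800 and 0.546 without CeD+GR 3. Cyp24a1 was most like Aim2, a sensor of DNA (0.930), Prmt9 (0.902) and Hdgfl2 (0.900). Without control 3 these were 0.871, -0.108 and 0.952, over levels of Cyp24a1 that rest on 28 reads or fewer.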

How the data were processed

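RNA from mouse duodenum was measured in 9 libraries, grouped and numbered by their titles. The deposited values are FPKM for each gene, made by the authors. Directional libraries after removal of ribosomal RNA are given per the labels' protocols. The submitters' processing notes list mm10 as the build and, among tools, HISAT2 2.0.5 and featureCounts 1.5.0-p3 beside fastp and DESeq2 1.20.0, and say nothing of their order. Annotation release, strand setting and FPKM formula: not given in the sources used here. Multiplied by gene length, 99.98% to 100% of the FPKM above 0 fell within 0.1 of a whole number of per-library steps, and these steps were taken as recovered reads.

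Fits used log2(FPKM + 0.5), which understates fold changes of low genes. The 14683 genes averaging 0.5 FPKM or more entered limma 3.58.1 (R 4.3.3), with the 3 groups as terms over all 9 libraries and a variance trend. Benjamini-Hochberg adjustment covered all genes, at 0.05. Single values and correlations had two-sided exact permutation tests (scipy 1.17.1). The fit was tested on simulated data. Members and lists were chosen with earlier results of these data known. Named genes are the members, up to 4 genes per pathway list and comparison with the smallest p, some listed genes of known role and the 3 most like each member. Cyp27a1, Cldn12, Pdx1, Slc40a1, Gata4, Onecut2, Cybrd1, Fabp6, Slc10a2 and the heat map rows were chosen from the lists after their values were seen. Of all listed symbols, 2 (Nherf1 and Nherf4) matched no row under that name, which does not show that the genes are absent. To see whether replicate numbers pair the libraries, deviations from group means were correlated: the 3 pairs of control and CeD gave 0.367 to 0.712, while CeD+GR 3 gave -0.11 with control 3 and -0.12 with CeD 3. CeD+GR 1 gave 0.414 with control 1 and 0.375 with CeD 1, and CeD+GR 2 gave 0.401 with control 2 and 0.254 with CeD 2. With CeD 3, of another number, CeD+GR 2 gave 0.503. The numbers were read as pairs for control and CeD only, because of CeD+GR 3. The main fit did not use these pairs. Its SEs and p-values are therefore unpaired, also for CeD against control. Alternatives were pseudocounts of 0.1 and 1, other filters, scalings, weights and variance models, a replicate block, limma-voom on recovered reads and fits with fewer libraries.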

Additional observations from a re-analysis of the deposited data

How the results depend on the processing

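Under 23 alternatives each, the 18 differences of members between groups kept their direction in 386 of 414 fits and never passed the threshold (smallest adjusted p of 0.550 in limma). Part of the kept directions was fixed in advance, because several alternatives cannot change a member's difference and bear on its p-value only. These are the other filters, the fit without a variance trend, the replicate block and the fit to only the groups compared. Leaving out a library of the group not compared is another. The number of libraries, 3 a group, limits the precision, and depth limits Trpv6 and Cyp24a1, which rest on 28 reads or fewer in 8 libraries each. No gene was called under any alternative, except without control replicate 1, where 1 gene, the small RNA gene Gm22615, named because it was the only one, was called lower in CeD+GR than in control, so that the count ran from 0 to 1 over the libraries left out. The replicate block changed no call, with 0 genes called in each comparison. CeD 3 deviated more like control 2 (0.458) than control 3 (0.410), and CeD+GR 2 more like CeD 3 (0.503) than CeD 2 (0.254). Not every library was thus closest to its own number.

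The remaining values changed sign, and the cause was not tested. In CeD+GR against CeD, S100g, at 0.01, became -0.03 with a pseudocount of 0.1, -0.01 with median-of-ratios rescaling, -0.11 with quantile normalization, -0.53 with array weights, -0.03 with limma-voom, -1.85 without CeD 1 and CeD+GR 3, and -0.08 and -0.85 without CeD 2 and CeD 3. Single libraries left out moved it from -2.80 (CeD+GR 3) to 1.98 (CeD+GR 2). Atp2b1 became 0.31 centred on the enterocyte list, 0.32 with replicates 2 and 3 only, and 0.04 and 0.01 without CeD 1 and CeD+GR 1, with a range over single libraries left out from -0.97 (CeD+GR 3) to 0.15 (CeD+GR 2). Vdr became 0.16 centred on the enterocyte list, under a shift of all genes of 0.59. Trpv6 became -0.07 without CeD 1 and CeD+GR 3 and ran from -0.12 (without CeD+GR 3) to 2.60 over single libraries left out. Cyp24a1 became -0.03 without CeD 2 and -0.18 without CeD+GR 2. In CeD+GR against control, Trpv6 became -0.01 with limma-voom and -0.33 without CeD 1 and CeD+GR 3, and Atp2b1 became 0.01 centred on the enterocyte list. Over single libraries left out, Trpv6 ran from -0.33 (CeD+GR 3) to 2.39, S100g from -4.16 (CeD+GR 3) to 0.62 (CeD+GR 2) and Cyp24a1 from -3.30 (control 1) to 0.04 (control 3). In CeD against control, Atp2b1 became 0.17 without CeD 3, and Slc34a2 became -0.20 with limma-voom and ran from -0.49 (without CeD 2) to 0.67 (without CeD 1).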
